A study of Mus musculus with 13 samples.

Results

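Transcripts of 10 enzymes and cofactors of DNA methylation and Polycomb silencing were measured in T cells sorted from mouse melanomas, with and without ablation of regulatory T (Treg) cells. They were the rows of the deposited table of normalized expression whose gene symbol was Dnmt1, Dnmt3a, Dnmt3b, Uhrf1, Tet1, Tet2, Tet3, Ezh2, Suz12 or Eed, 10 of 12963 genes listed. All 10 were found, and all 10 reached the minimum of 10 in at least 2 libraries that 12667 genes passed. The tumors were B16-F10, a melanoma line of the mouse, grown under the skin of adult Foxp3-EGFP-DTR mice of both sexes. In these animals the Foxp3 gene drives enhanced green fluorescent protein (EGFP) and the human diphtheria toxin receptor (DTR), so that diphtheria toxin (DTx) kills Treg cells while phosphate-buffered saline (PBS) spares them. Every group came from this genotype and carried the same tumor. The 13 libraries fell into 5 groups, named by cell and agent. After PBS there were 3 libraries of Foxp3-EGFP+ Treg cells (Treg PBS), 2 of CD4+ conventional T (Tconv) cells (CD4 PBS) and 2 of CD8+ Tconv cells (CD8 PBS). After DTx there were 3 libraries each of CD4+ (CD4 DTx) and CD8+ (CD8 DTx) Tconv cells. The comparisons asked how Treg cells differ from Tconv cells in an intact tumor and what ablation of Treg cells changes in Tconv cells. Treg cells after DTx were not analysed here.

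DNA methylation at CG sites is copied to the new strand after replication by DNMT1, which UHRF1 brings to hemimethylated sites, while DNMT3A and DNMT3B place methyl groups de novo. TET1, TET2 and TET3 oxidize 5-methylcytosine and thereby open the way to demethylation. Polycomb repressive complex 2 (PRC2) methylates lysine 27 of histone H3 through its catalytic subunit EZH2 or the paralog EZH1, with SUZ12 and EED as core subunits. In T cells DNMT1 and TET enzymes bear on the methylation of the Foxp3 locus, and EZH2 maintains the gene program of activated Treg cells.

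The libraries held between 15947556 and 34140486 reads as recovered from the deposited values. Values are given as normalized reads, which are read counts divided by 1 factor per library, so that 3 reads came to between 1.98 and 4.10 normalized reads. They are listed in the order of the replicate numbers. The 10 transcripts together took between 0.0459% and 0.0960% of the reads of a library. Foxp3, the lineage factor of Treg cells, lay between 1178 and 1897 normalized reads in Treg PBS and did not exceed 12.1 in any other library. Cd4 and Cd8a were highest in the groups labelled for them, although Cd8a in the CD4 DTx libraries reached 103, 711 and 1302 normalized reads, up to 3.24% of the CD8 DTx mean. Summed over 5 melanocyte markers, the libraries ranged from 782 to 1229 in Treg PBS, 435 to 498 in CD4 PBS, 171 to 629 in CD8 PBS, 89.0 to 185 in CD4 DTx and 64.5 to 127 in CD8 DTx, and Tyrp1, which makes melanin, was at 0 in 1 CD4 DTx and 1 CD8 DTx library. Summed over 3 erythroid markers they ranged from 948 to 6570.2 in the PBS groups and from 0 to 1175 in the DTx groups, with the globin Hba-a1 at 0 in 2 CD4 DTx libraries. Sums of 10 myeloid markers lay between 225 and 4301 over all libraries, with no gene called in the comparisons of Treg PBS with PBS-treated Tconv cells or of DTx with PBS. Single markers moved in opposite directions in CD8+ cells. Itgam lay between 513 and 1606 in CD8 DTx against 13.3 to 205 in CD8 PBS, and Cd68 between 607 and 1055 against 124 to 273. Lyz2 lay between 51.0 and 198 in CD8 DTx against 497 to 1321 in CD8 PBS. Sums of 4 B cell markers ranged from 441 to 948 in Treg PBS, 147 to 272 in CD4 PBS, 794 to 853 in CD8 PBS, 92.6 to 158 in CD4 DTx and 276 to 1296 in CD8 DTx. Of 5 stromal and endothelial markers only Pecam1 was listed, at 1633 to 2047 normalized reads in Treg PBS, 7092 to 7291 in CD4 PBS, 3762 to 3865 in CD8 PBS, 1772 to 2719 in CD4 DTx and 944 to 1402 in CD8 DTx. With the other markers of that list not listed, Pecam1 alone does not show which cells its reads came from. Every DTx library had a lower melanocyte sum and less Pecam1 than the PBS libraries of its lineage, as for Tet1. The erythroid sums of CD4+ cells, in contrast, overlapped between PBS and DTx. In Treg PBS, Tet1 (87.2 to 257) and Pecam1 lay below their levels in the PBS-treated Tconv libraries. The melanocyte sums went the other way there and were the highest of all groups. The part of these markers in the results was not tested. In the 5 libraries numbered 3 the X-inactivation transcript Xist was at 0 and the Y-linked Ddx3y lay between 2598 and 4026, whereas the 8 libraries numbered 1 or 2 held no Ddx3y and at least 942 of Xist, so sex and replicate number 3 cannot be told apart. The CD4 PBS and CD8 PBS groups had the numbers 2 and 3 and the other groups 1, 2 and 3. Transcript levels in sorted bulk cells do not separate fewer cells expressing a gene from less RNA per cell.

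Ablation of Treg cells was followed by the same calls among the 10 transcripts in CD4+ and in CD8+ Tconv cells. Uhrf1 and Ezh2 rose and Tet1 fell in both, while Dnmt1, Dnmt3a, Dnmt3b, Tet2, Tet3, Suz12 and Eed did not pass the test. In the intact tumor Uhrf1, Ezh2 and Eed were higher and Tet3 was lower in Treg cells than in CD4+ Tconv cells. The test was limma on log2(normalized reads + 1) across all 12667 genes, with Benjamini-Hochberg adjustment, and a gene was called at an adjusted p under 0.05. In Treg PBS against CD4 PBS 3 members were called higher, where 13.5% of all genes were, and 1 was called lower, where 6.91% were. In CD4 DTx against CD4 PBS 2 members were called higher, with 8.64% of all genes, and 1 lower, with 4.08%. In CD8 DTx against CD8 PBS 2 members were called higher, with 7.40% of all genes, and 1 lower, with 3.47%. In Treg PBS against CD8 PBS 3 members were called higher, with 11.9% of all genes. The median log2 fold change of the members was -0.08, -0.04 and 0.03 in the first 3 of these comparisons, and that of all genes was 0.01, -0.04 and -0.03. The comparisons within each lineage share their PBS libraries with the comparisons against Treg cells, so their values are given side by side and were not set against each other.

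**Figure D1:**
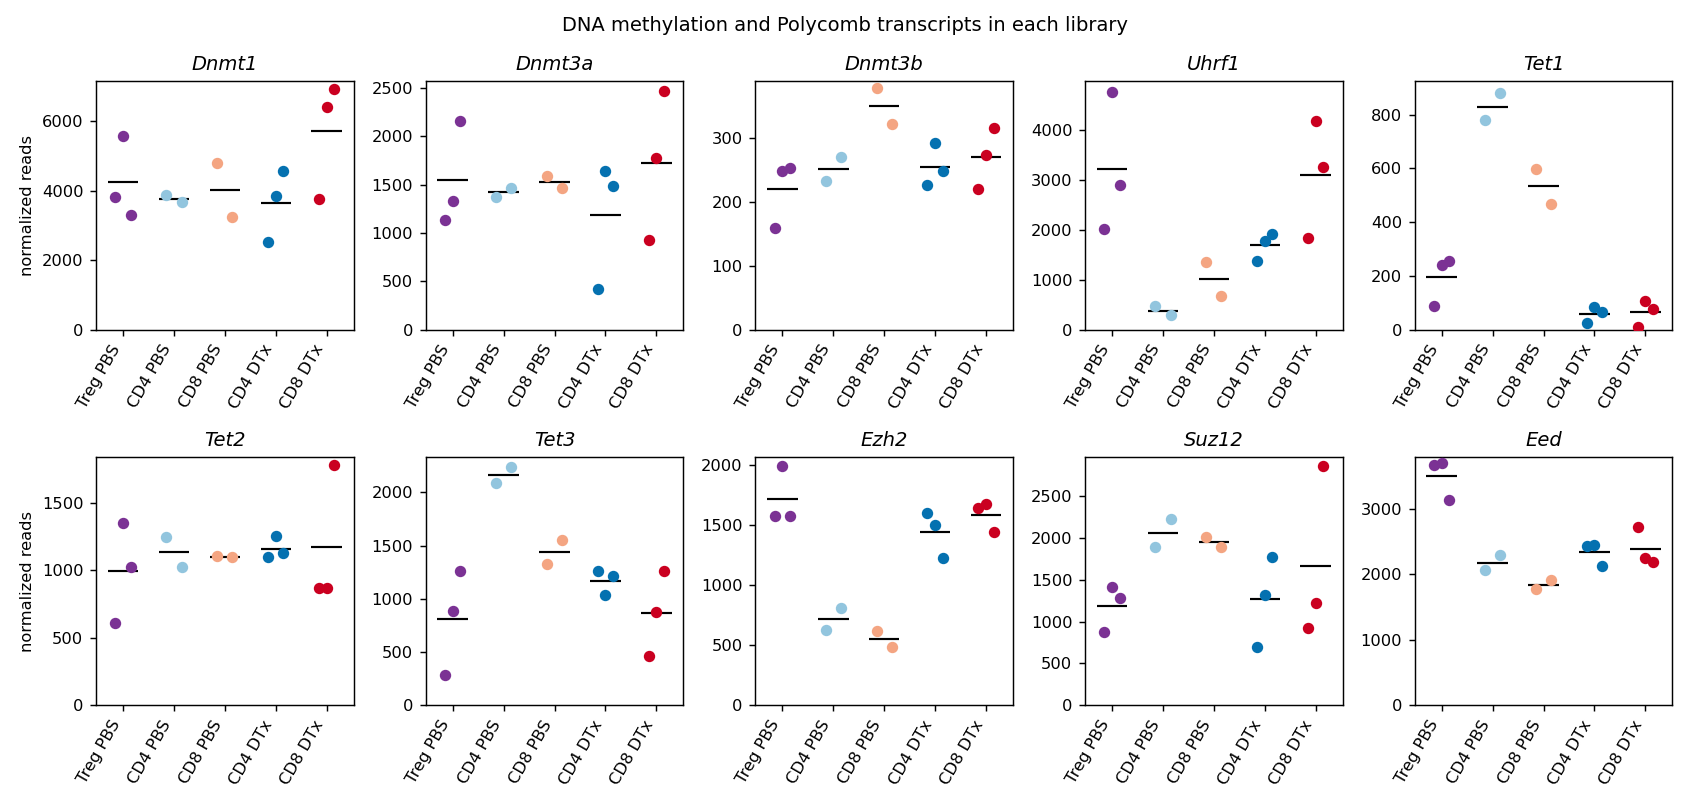
Normalized reads of the 10 transcripts (vertical axes, from 0) in the 5 groups (horizontal axes). Each point is 1 library and each bar the mean of a group. Uhrf1 and Ezh2 were lowest in CD4 PBS or CD8 PBS, where Tet1 was highest, and Dnmt1 overlapped among all groups.

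**Figure D2:**
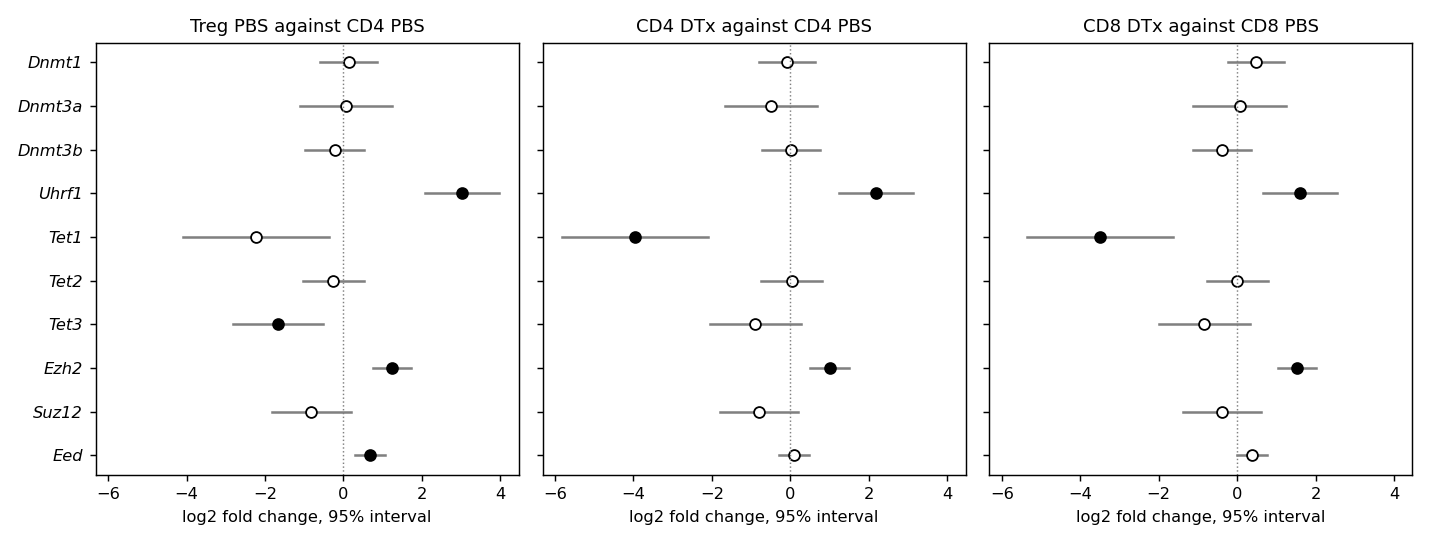
Log2 fold changes (horizontal axes) of the 10 transcripts in Treg PBS against CD4 PBS and in DTx against PBS within CD4+ and CD8+ Tconv cells, with 95% intervals from limma. Filled points were called at an adjusted p under 0.05, and Uhrf1 and Ezh2 lay to the right of 0 in all 3 panels.

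Maintenance methylation was represented by Dnmt1, the copying methyltransferase, and Uhrf1, which recruits it. Dnmt1 measured 3814, 5580.1 and 3310.3 normalized reads in Treg PBS, against 3861 and 3666 in CD4 PBS and 4799 and 3229.8 in CD8 PBS, and after DTx 2522, 3846 and 4554 in CD4+ and 3773, 6409 and 6935 in CD8+ cells. All 5 groups overlapped, with the CD8 DTx libraries numbered 2 and 3 at the top. The log2 fold change of Dnmt1 was -0.09 (95% interval -0.81 to 0.63) in CD4 DTx against CD4 PBS, 0.49 (-0.23 to 1.21) in CD8 DTx against CD8 PBS and 0.13 (-0.59 to 0.85) in Treg PBS against CD4 PBS, with adjusted p of 0.891, 0.367 and 0.806 by limma. These intervals hold both no difference of Dnmt1 and a difference in either direction.

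Uhrf1 was called higher in Treg cells and after DTx in both lineages. It measured 2013, 4762 and 2904 normalized reads in Treg PBS, against 474 and 287 in CD4 PBS and 1359.5 and 678 in CD8 PBS, and after DTx 1372, 1786 and 1911 in CD4+ and 1837, 4190.3 and 3256 in CD8+ cells. CD4 PBS lay below every other library, and CD8 PBS lay below all DTx and Treg libraries, its higher library by a small margin. In Treg PBS against CD4 PBS Uhrf1 was 8.19-fold higher (log2 fold change 3.03 ± 0.44 SE, adjusted p = 5.0e-04, limma), which also passed the 4-fold rule that the study added to its test and that 7.85% of all genes passed upward. In CD4 DTx against CD4 PBS it rose 4.52-fold (log2 2.18 ± 0.44, adjusted p = 0.00601), again past 4-fold, as 5.06% of all genes were. In CD8 DTx against CD8 PBS it rose 3.04-fold (log2 1.61 ± 0.44, adjusted p = 0.0346), and in Treg PBS against CD8 PBS it was 3.15-fold higher (log2 1.66 ± 0.44, adjusted p = 0.0199). The rise stood within both replicate numbers that the groups share, at log2 1.91 in number 2 and 2.73 in number 3 for CD4+ cells, and 1.62 and 2.26 for CD8+ cells. Some calls were lost with 1 library left out, where the adjusted p was 0.0901 in CD4+ cells without CD4 PBS number 3, 0.377 in CD8+ cells without CD8 PBS number 3, 0.122 without CD8 DTx number 2, and 0.0715 and 0.241 for Treg PBS against CD8 PBS without Treg PBS number 2 and CD8 PBS number 3.

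The promoters of Uhrf1, Ezh2 and Tet1 are shown because these genes were called after DTx in both lineages. The sequences are RefSeq promoters of the GRCm38.p6 build, which differs from the build the authors aligned to, and run from 250 bases before to 50 bases after the start of transcription, 5′ to 3′ on the strand of the gene. Capitals mark the letters of a match to TTTCCCGC, TTTGGCGC, TTTCGCGC or TTTGCCGC on either strand, the core of sites for E2F factors, which drive genes of the S phase. Uhrf1 lies on the plus strand at chr17:56304063-56304362, Ezh2 on the minus strand at chr6:47594981-47595280 and Tet1 on the minus strand at chr10:62887275-62887574.
Uhrf1: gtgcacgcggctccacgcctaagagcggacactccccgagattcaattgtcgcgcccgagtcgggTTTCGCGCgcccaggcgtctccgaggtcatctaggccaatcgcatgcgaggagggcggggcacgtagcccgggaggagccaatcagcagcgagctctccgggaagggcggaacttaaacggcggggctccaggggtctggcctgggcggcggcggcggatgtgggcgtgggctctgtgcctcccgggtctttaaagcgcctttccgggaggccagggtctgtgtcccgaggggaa
Ezh2: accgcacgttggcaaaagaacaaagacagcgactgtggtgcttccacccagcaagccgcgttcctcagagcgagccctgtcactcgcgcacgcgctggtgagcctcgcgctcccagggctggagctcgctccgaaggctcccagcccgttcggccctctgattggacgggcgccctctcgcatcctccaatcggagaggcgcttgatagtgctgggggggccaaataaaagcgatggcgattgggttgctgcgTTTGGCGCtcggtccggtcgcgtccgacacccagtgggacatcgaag
Tet1: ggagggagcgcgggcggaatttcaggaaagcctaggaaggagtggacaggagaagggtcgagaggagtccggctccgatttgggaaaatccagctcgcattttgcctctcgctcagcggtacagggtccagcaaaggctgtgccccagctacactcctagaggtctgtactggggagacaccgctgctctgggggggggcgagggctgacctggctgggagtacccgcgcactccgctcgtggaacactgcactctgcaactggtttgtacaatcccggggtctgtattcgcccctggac
The match began at position -185 in Uhrf1 and at position 4 in Ezh2, where position 1 is the first transcribed base, and Tet1 held none. Such a match was present in 744 of 32851 promoters, or 2.26%. Suz12 held 1 match and a promoter of Dnmt1 held 2, although these genes were called in no comparison, and Dnmt3a, Dnmt3b, Tet2, Tet3 and Eed held none. The other promoter listed for Uhrf1 and the other 2 listed for Dnmt1 held none either. The printed Uhrf1, Ezh2 and Tet1 promoters held 33, 31 and 17 CG sites, where the median over all promoters was 7. A match is a description of these letters and does not show binding.

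Uhrf1 tracked transcripts of the cell cycle across libraries. The 3 genes most like it over the 13 libraries were Top2a, Kif11 and Mastl, which act in mitosis, with a Pearson r on the log2 scale of 0.97 each, and r with the proliferation marker Mki67 was 0.97. These libraries share treatments and cell types, so r is a description and has no test. Mki67 itself measured 3253, 8115 and 3685 normalized reads in Treg PBS, against 289.7 and 183 in CD4 PBS and 842 and 228 in CD8 PBS, and after DTx 1695, 2652 and 2233 in CD4+ and 1895, 5508 and 3525 in CD8+ cells. Of 17 cell cycle genes 14 were called higher for Treg PBS against CD4 PBS, 8 for CD4 DTx against CD4 PBS, 10 for CD8 DTx against CD8 PBS and 12 for Treg PBS against CD8 PBS, and none was called lower in these 4 comparisons. Their sums ranged from 58353 to 105070 normalized reads in Treg PBS and from 62585 to 104620 in CD8 DTx, against 24661 to 25003 in CD4 PBS, 28168 to 35059 in CD8 PBS and 30482 to 45411 in CD4 DTx. Whether Uhrf1 or Ezh2 differed among cells at the same stage of the cycle was not tested. Ezh2 had r of 0.89 with Mki67, Eed 0.60, Dnmt1 0.45 and Dnmt3a 0.09, whereas Tet1 had r of -0.56 and Tet3 of -0.59.

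**Figure D3:**
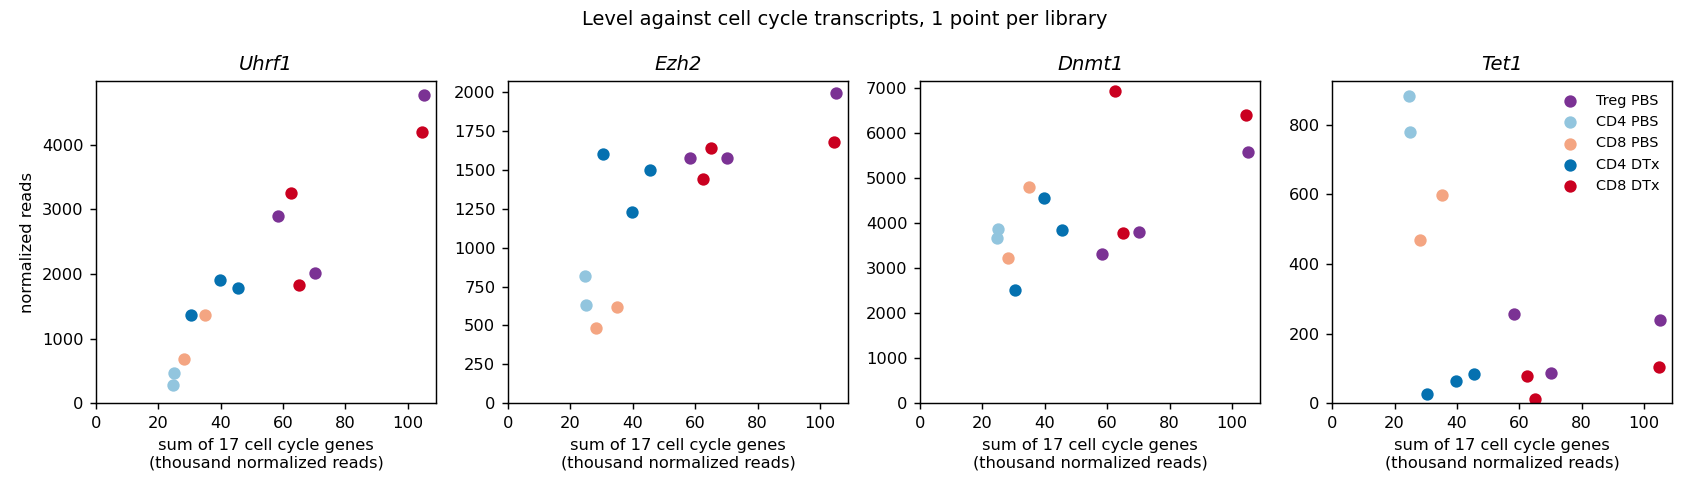
Normalized reads of Uhrf1, Ezh2, Dnmt1 and Tet1 (vertical axes) against the sum of 17 cell cycle genes (horizontal axes, in kilo-units of normalized reads), 1 point per library, colored by group. The highest Uhrf1 value lay at the highest sum and the lowest at the lowest, and the CD4 DTx libraries had Ezh2 between 1226 and 1604 at sums between 30482 and 45411.

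The de novo methyltransferases did not differ between groups by the test. Dnmt3a measured 1135, 1330.3 and 2161 normalized reads in Treg PBS, against 1369 and 1466 in CD4 PBS and 1587 and 1465 in CD8 PBS, and after DTx 419, 1640.0 and 1483 in CD4+ and 925, 1771 and 2467 in CD8+ cells. The libraries numbered 1 were the lowest of their group in all 3 groups that have one, and the value of 419 in CD4 DTx was the lowest of all. The log2 fold change of Dnmt3a was -0.49 (95% interval -1.67 to 0.69) in CD4 DTx against CD4 PBS and 0.06 (-1.12 to 1.24) in CD8 DTx against CD8 PBS, and within numbers 2 and 3 it was 0.26 and 0.02 in CD4+ and 0.16 and 0.75 in CD8+ cells. Without CD4 DTx number 1 the CD4+ value was 0.14. Dnmt3b stayed between 160.0 and 379 normalized reads over all 13 libraries, with both CD8 PBS libraries (379 and 323) above every other. Its log2 fold change was 0.02 (-0.73 to 0.77) in CD4 DTx against CD4 PBS and -0.39 (-1.14 to 0.36) in CD8 DTx against CD8 PBS. Per kilobase of annotated exon Dnmt1 supplied between 72.6% and 79.6% of the summed level of the 3 methyltransferases in the group means, and Dnmt3b between 5.68% and 9.41%.

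Tet1 was the TET dioxygenase that was called lower after ablation of Treg cells. It measured 779 and 882 normalized reads in CD4 PBS and 598 and 468 in CD8 PBS, against, after DTx, 26.2, 82.8 and 64.5 in CD4+ and 11.1, 105 and 78.1 in CD8+ cells, and 87.2, 240.5 and 257 in Treg PBS. The PBS-treated Tconv libraries lay above all others, with 468 the lowest of them and 105 the highest after DTx. The lowest value, in CD8 DTx number 1, rested on 12 reads. Tet1 fell by 3.97 on the log2 scale (SE 0.86, adjusted p = 0.00932, limma) in CD4 DTx against CD4 PBS, and in CD8 DTx against CD8 PBS it fell by 3.51 (SE 0.86, adjusted p = 0.0221). Both falls passed the 4-fold rule, which 1.79% and 1.59% of all genes passed downward in the 2 comparisons. Within the shared replicate numbers 2 and 3 the log2 ratio of DTx to PBS was -3.22 and -3.75 in CD4+ cells, and -2.50 and -2.57 in CD8+ cells. With either library of a PBS group left out the calls were lost, with adjusted p of 0.0602 and 0.0816 without CD4 PBS number 2 or 3, and of 0.122 and 0.149 without CD8 PBS number 2 or 3. In CD8+ cells the log2 fold change was -2.53 without CD8 DTx number 1 and -4.10 without CD8 DTx number 2. In Treg PBS against CD4 PBS the log2 fold change of Tet1 was -2.23 (95% interval -4.10 to -0.37), which did not pass the test (adjusted p = 0.0853), although it did by DESeq2 on the recovered reads (adjusted p = 0.0285), with only the compared groups fitted (0.0232) and with the replicate number as a block (0.0345). Without all libraries numbered 1 it was -1.73 with an adjusted p of 0.0107.

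The paralogs Tet2 and Tet3 were not called after DTx in either lineage. Tet2 measured 611, 1349.8 and 1025 normalized reads in Treg PBS, against 1244 and 1024 in CD4 PBS and 1109 and 1096 in CD8 PBS, and after DTx 1099.7, 1255 and 1129.9 in CD4+ and 868, 872 and 1784 in CD8+ cells, and all groups overlapped. Its log2 fold change was 0.04 (95% interval -0.74 to 0.82) in CD4+ cells after DTx and 0.00 (-0.78 to 0.78) in CD8+ cells. Tet3 measured 282, 887 and 1264 in Treg PBS, against 2087 and 2238 in CD4 PBS and 1326 and 1553 in CD8 PBS, and after DTx 1259.6, 1034 and 1218 in CD4+ and 467, 875 and 1261 in CD8+ cells. CD4 PBS stood above all other groups, and the DTx groups overlapped with Treg PBS. As for Tet1, the PBS-treated Tconv libraries lay above all others, with 1326 the lowest of them and 1264 the highest elsewhere. Within the shared replicate numbers 2 and 3 the log2 ratio of DTx to PBS for Tet3 was -1.01 and -0.88 in CD4+ cells. In CD8+ cells it was -0.60 and -0.30. Tet3 was 3.17-fold lower in Treg PBS relative to CD4 PBS (log2 fold change -1.66 ± 0.53 SE, adjusted p = 0.0441, limma), a call that was lost without Treg PBS number 1 (adjusted p = 0.108) or number 2 (0.0602) and without CD4 PBS number 2 (0.160) or number 3 (0.187), and also by edgeR on the recovered reads (0.0673), with no filter on low values (0.0622) and with only the compared groups fitted (0.0799). Without Treg PBS number 1 its log2 fold change was -1.03. After DTx its log2 fold change was -0.89 (-2.04 to 0.27) in CD4+ cells and -0.84 (-1.99 to 0.32) in CD8+ cells, and neither passed, although the former did with only the compared groups fitted (adjusted p = 0.0417).

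Relative to its family, Tet1 had a smaller share after DTx and in Treg cells. Per kilobase of exon it made up 15.8% ± 1.5 (SD, n = 2) of the summed Tet level in CD4 PBS and 13.3% ± 2.6 (n = 2) in CD8 PBS, against 6.94% ± 0.63 (n = 3) in Treg PBS, 1.75% ± 0.87 (n = 3) in CD4 DTx and 2.16% ± 1.81 (n = 3) in CD8 DTx. The PBS-treated Tconv groups did not overlap with the others, and Treg PBS did not overlap with the DTx groups. Tet3 held 50.5% ± 2.9 in CD4 PBS and 33.99% ± 10.5 in Treg PBS, where Tet2 held 59.1% ± 11.1. Exon lengths came from an annotation of another build than the one used for counting, and these shares are descriptions with no test. The genes most like Tet1 over the 13 libraries were Scmh1 (r = 0.97), which encodes a protein of Polycomb repressive complex 1, Ubqln2 (0.96) and Pacsin1 (0.96).

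**Figure D4:**
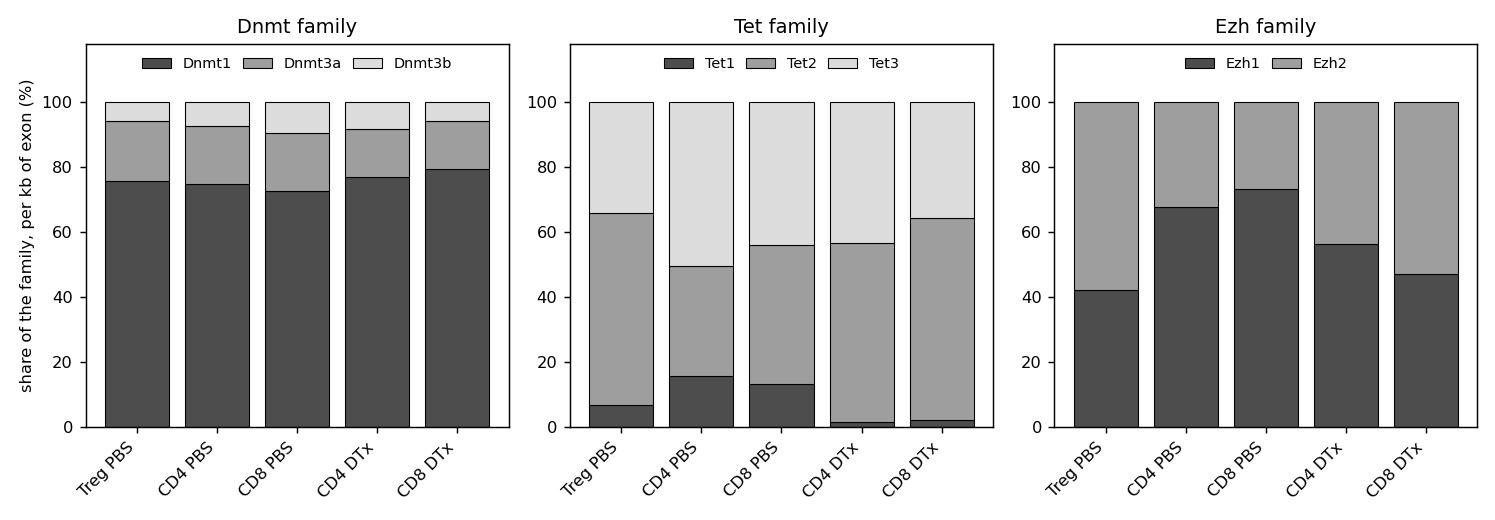
Share of each gene in the summed level of its family per kilobase of exon (vertical axes, percent, group means), for the DNA methyltransferases, the TET dioxygenases and the EZH histone methyltransferases, in the 5 groups. Tet1 took 15.8% in CD4 PBS and 1.75% in CD4 DTx, and Ezh2 took 32.2% and 43.7%.

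Ezh2, the catalytic subunit of PRC2, was called in 4 comparisons and its call against CD4 PBS in Treg cells stood under every alternative run. It measured 1572, 1994 and 1575 normalized reads in Treg PBS, against 630.0 and 814 in CD4 PBS and 621 and 483 in CD8 PBS, and after DTx 1604, 1499.9 and 1226 in CD4+ and 1642, 1678 and 1442 in CD8+ cells. The 4 PBS-treated Tconv libraries lay below the other 9, whose 3 groups overlapped with each other. Ezh2 was 2.38-fold higher in Treg PBS than in CD4 PBS (log2 fold change 1.25 ± 0.22 SE, adjusted p = 0.00204, limma) and 3.11-fold higher than in CD8 PBS (log2 1.64 ± 0.22, adjusted p = 4.3e-04). It rose 2.001-fold in CD4 DTx against CD4 PBS (log2 1.0005 ± 0.22, adjusted p = 0.0111) and 2.89-fold in CD8 DTx against CD8 PBS (log2 1.53 ± 0.22, adjusted p = 0.00171). None of these changes passed the 4-fold rule. Within shared replicate numbers the rise after DTx was 1.25 and 0.59 on the log2 scale in CD4+ cells and 1.43 and 1.58 in CD8+ cells. The call in CD4+ cells was lost without CD4 PBS number 2 (adjusted p = 0.132) and with only the compared groups fitted (0.0508), and the call in CD8+ cells stood with any single library left out. The melanocyte sums were highest in Treg PBS, where Ezh2 and Uhrf1 were called higher, and lower after DTx within each Tconv lineage, where both also rose, and their part was not tested.

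The paralog Ezh1, which serves PRC2 in resting cells, measured 2463, 2818 and 2891 normalized reads in Treg PBS, against 3420.5 and 3164 in CD4 PBS and 3565 and 3024 in CD8 PBS, and after DTx 4859.8, 3541 and 3750.5 in CD4+ and 3034, 2621 and 3587 in CD8+ cells. It was not called in any of the 4 comparisons in which Ezh2 was. Per kilobase of exon Ezh2 made up 57.6% ± 3.2 (SD, n = 3) of the summed Ezh1 and Ezh2 level in Treg PBS, 32.2% ± 5.1 (n = 2) in CD4 PBS, 26.6% ± 1.2 (n = 2) in CD8 PBS, 43.7% ± 3.6 (n = 3) in CD4 DTx and 52.9% ± 5.9 (n = 3) in CD8 DTx. The highest share among PBS-treated Tconv libraries was 35.8% and the lowest elsewhere 41.5%.

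Of the other core subunits Eed was called higher in Treg cells and Suz12 was called in no comparison. Eed, which reads the methyl mark, measured 3668, 3697 and 3137 normalized reads in Treg PBS, against 2058 and 2293 in CD4 PBS and 1774 and 1905 in CD8 PBS, and after DTx 2426, 2444 and 2129 in CD4+ and 2724, 2254 and 2180.5 in CD8+ cells. All 3 Treg libraries were above the other 10. Eed was 1.61-fold higher in Treg PBS than in CD4 PBS (log2 fold change 0.68 ± 0.17 SE, adjusted p = 0.0159, limma), a call lost without Treg PBS number 2 (adjusted p = 0.0505) and without CD4 PBS number 2 (0.135) or 3 (0.0669), and it was 1.90-fold higher than in CD8 PBS (log2 0.93 ± 0.17, adjusted p = 0.00342). After DTx its log2 fold change was 0.10 (95% interval -0.28 to 0.48) in CD4+ cells and 0.37 (-0.01 to 0.75) in CD8+ cells, neither of which passed. Suz12, the scaffold of the complex, measured 874, 1418 and 1284 in Treg PBS, against 1895 and 2229 in CD4 PBS and 2008 and 1888 in CD8 PBS, and after DTx 699, 1322 and 1779 in CD4+ and 923, 1224 and 2864 in CD8+ cells. The CD8 DTx library numbered 3 was the highest of all, while all 3 CD4 DTx libraries lay below the PBS-treated Tconv libraries. The log2 fold change of Suz12 was -0.80 (-1.80 to 0.20) in CD4 DTx against CD4 PBS, -0.40 (-1.39 to 0.60) in CD8 DTx against CD8 PBS and -0.82 (-1.81 to 0.18) in Treg PBS against CD4 PBS, and no comparison passed.

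Against Treg cells themselves the Tconv cells of DTx-treated mice differed in 1 member. Relative to Treg PBS, Eed was lower in CD4 DTx (log2 fold change -0.58 ± 0.16 SE, adjusted p = 0.0401, limma), a direction in which 4.55% of all genes were called, and in CD8 DTx (-0.56 ± 0.16, adjusted p = 0.0468), with 4.71% of all genes. The first call was lost when either of Treg PBS number 1 (adjusted p = 0.117) or 2 (0.131) or any of CD4 DTx number 1 (0.0586), 2 (0.0773) or 3 (0.141) was left out, and the second without Treg PBS number 1 (0.130), 2 (0.149) or 3 (0.0559) or CD8 DTx number 2 (0.132) or 3 (0.101). For Ezh2 the log2 fold change against Treg PBS was -0.25 (95% interval -0.68 to 0.19) in CD4 DTx and -0.10 (-0.54 to 0.33) in CD8 DTx, and for Uhrf1 it was -0.86 (-1.70 to -0.01) and -0.05 (-0.90 to 0.80). For Tet1 it was -1.73 (-3.40 to -0.07) and -1.92 (-3.59 to -0.25), with adjusted p of 0.211 and 0.176. With the replicate number as a block, which the study's labels do not define as a shared day, Tet1 was called in both (adjusted p = 0.0210 and 0.0123) and Uhrf1 in CD4 DTx (0.0242).

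No member separated the CD4+ from the CD8+ Tconv cells of DTx-treated mice, of 1.64% of all genes that did, nor those of PBS-treated mice, of 1.08%. By edgeR and DESeq2 0 members were called in both. At an unadjusted p under 0.05 the limma counts were 0 members and 1443 of 12667 genes after DTx, and 1 member and 827 genes after PBS. The 1 was Uhrf1, at a log2 fold change of -1.38 (95% interval -2.41 to -0.34, adjusted p = 0.376) in CD4 PBS against CD8 PBS, and it was called there with the replicate number as a block (0.0269). The response to DTx was also compared between the lineages through an interaction term. By limma 0.0474% of all genes and 0 members were called for it. An unadjusted p under 0.05 was reached by 0 members and by 513 of 12667 genes, and edgeR and DESeq2 called 0 members. The difference of the log2 responses, CD4+ minus CD8+, was 0.57 (-0.77 to 1.91) for Uhrf1, -0.53 (-1.22 to 0.16) for Ezh2 and -0.46 (-3.09 to 2.17) for Tet1, and these intervals hold both equal and unequal responses. The same-numbered CD4 DTx and CD8 DTx libraries deviated together, and blocking on the number called 414 genes between them in place of 208, still with 0 members.

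The counts for partners of these enzymes outside the 10 can be read against the shares of all genes called that are given above for each comparison. Of 19 other genes of DNA methylation 2 were called higher and 1 lower in Treg PBS against CD4 PBS, and 1 each way in CD4 DTx against CD4 PBS and in CD8 DTx against CD8 PBS, with median log2 fold changes over the list of 0.02, -0.17 and -0.23. Hells, a chromatin remodeler needed for methylation of repeats, was the member of that list called in all 3, and measured 1345, 1174 and 791 normalized reads in Treg PBS, against 184 and 182 in CD4 PBS and 392 and 289 in CD8 PBS, and after DTx 830.4, 665 and 807 in CD4+ and 1356, 718 and 1191 in CD8+ cells. Its PBS-treated Tconv libraries lay below all others, as for Ezh2. Hells was 5.86-fold higher in Treg PBS than in CD4 PBS (log2 2.55 ± 0.33 SE, adjusted p = 2.3e-04, limma), and rose 4.16-fold in CD4+ cells (adjusted p = 0.00143) and 3.11-fold in CD8+ cells (adjusted p = 0.00773) after DTx. Zbtb38, which binds methylated DNA, was 2.06-fold higher in Treg PBS than in CD4 PBS (adjusted p = 0.0140), and Usp7, a deubiquitinase that stabilizes UHRF1 and DNMT1, was 2.24-fold lower (adjusted p = 0.0412). Gadd45a, a stress gene linked to demethylation, fell 7.96-fold in CD4 DTx (adjusted p = 0.0344), and Cxxc5, which encodes a CG-binding protein, fell 16.4-fold in CD8 DTx (adjusted p = 0.0232).

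Of 10 other PRC2 genes, Ezh1 among them, 0 were called in these 3 comparisons by limma. An unadjusted p under 0.05 was reached by 3, 2 and 2 of them, and by 4401, 3333 and 3336 of all 12667 genes. The H3K27 demethylases Kdm6a and Kdm6b were not called in any of the 3, and neither had an unadjusted p under 0.05 there. Polycomb repressive complex 1 (PRC1), which ubiquitinates histone H2A, and the enzymes that remove this mark were represented by 25 genes, of which 3 were called higher and 1 lower in Treg PBS against CD4 PBS, 1 higher and 2 lower in CD4 DTx against CD4 PBS, and 1 each way in CD8 DTx against CD8 PBS, with medians of -0.36, -0.48 and -0.59. Scmh1 measured 626 and 760.2 normalized reads in CD4 PBS and 492 and 527 in CD8 PBS, against 31.8, 110.4 and 90.9 in CD4 DTx and 45.3, 145 and 113 in CD8 DTx. As with Tet1 the PBS-treated Tconv libraries stood above all DTx libraries, and Scmh1 fell 9.94-fold in CD4+ cells (log2 -3.31 ± 0.66 SE, adjusted p = 0.00608, limma) and 5.56-fold in CD8+ cells (log2 -2.47 ± 0.66, adjusted p = 0.0331). Pcgf2, a RING-type subunit that defines one form of PRC1, was a rare transcript, at 23.7, 41.2 and 42.4 normalized reads in Treg PBS, 21.5 to 23.4 in CD4 DTx and 23.1 to 35.0 in CD8 DTx, with 0 and 3.30 in CD4 PBS and 0 in both CD8 PBS libraries. It was called higher in all 3 comparisons (adjusted p = 0.00578, 0.0192 and 0.00448), and no fold is given because its PBS levels were at or near the level of 3 reads. In CD4 DTx Rnf2, the catalytic subunit of PRC1, fell 1.99-fold (adjusted p = 0.0177), and in Treg PBS against CD4 PBS Yaf2, a subunit of variant PRC1, was 1.98-fold higher (adjusted p = 0.0152) and Phc2, a subunit of canonical PRC1, was 2.02-fold lower (adjusted p = 0.0249).

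Enzymes that supply the methyl donor, or the 2-oxoglutarate that TET enzymes consume, made up a list of 11 genes, with 1 called each way in Treg PBS against CD4 PBS, 1 higher in CD4 DTx against CD4 PBS and 1 each way in CD8 DTx against CD8 PBS, with medians of -0.54, -0.47 and -0.48. The isocitrate dehydrogenases were called in opposite directions in Treg PBS against CD4 PBS and in CD8 DTx against CD8 PBS. Idh1, the cytosolic enzyme, measured 1060.1, 851 and 792 normalized reads in Treg PBS, against 284 and 203 in CD4 PBS and 148 and 144 in CD8 PBS, and after DTx 685, 553 and 334 in CD4+ and 582.02, 478 and 291 in CD8+ cells. It was 3.71-fold higher in Treg PBS than in CD4 PBS (adjusted p = 0.00463) and rose 2.95-fold in CD8 DTx (adjusted p = 0.0230). Idh2, the mitochondrial enzyme, measured 1351, 1756 and 1368 in Treg PBS, against 2866 and 3483 in CD4 PBS and 2482 and 2971 in CD8 PBS, and after DTx 1402, 1951 and 1304 in CD4+ and 849.9, 1294 and 478 in CD8+ cells. It was 2.13-fold lower in Treg PBS relative to CD4 PBS (adjusted p = 0.0428) and fell 3.36-fold in CD8 DTx (adjusted p = 0.00755). Ahcy, which clears the methylation product S-adenosylhomocysteine, rose 2.41-fold in CD4 DTx (adjusted p = 0.0127). These lists were tested within the fit across all genes, and whether single libraries decide their calls was not tested.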

How the data were processed

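RNA was sequenced from sorted tumor T cells, and per the labels and methods the authors prepared low-input SMART-type libraries, trimmed adaptors with Cutadapt, aligned with hisat2 to the NCBIM37 (mm9) genome and kept unique alignments. The read counter, its strand setting and the gene filter are not given in the sources used here, so overlapping or antisense genes cannot be told apart. The deposited table holds 1 normalized signal per gene and library. It is named FPM, but 100% of its values were whole multiples of 1 step per library (within 0.01 of a read), so they are read counts divided by a size factor, and the reads were recovered from them. The study describes its replicates as isolated on independent days, with the number of animals per library not given. Replicate libraries differed by more than sampling noise (chi-square divided by its degrees of freedom between 43.5 and 244), and 0 columns were unmatched.

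Groups came from the sample titles. The main test was limma 3.58.1 (R 4.3.3) on log2(value + 1), with trend, all 13 libraries and 1 mean per group, for genes of at least 10 in at least 2 libraries, tested on simulated data before use. The 4-fold rule is the study's. Although the values proved to be scaled counts, this design was kept as written, and edgeR 4.0.16 and DESeq2 1.42.0 on the recovered reads were alternatives. Further alternatives were pseudocounts of 0.5 and 5, no filter or a minimum of 50, TMM scaling, the replicate number as a block, the compared groups alone, each library left out, and 2 added later. Pairing was taken to hold for CD4 DTx and CD8 DTx, whose same-numbered libraries deviated from their group means together (r = 0.360, 0.207 and 0.590). Named genes were the 10 members, the lineage genes, Ezh1 and Mki67, up to 2 called genes per list, comparison and direction with the lowest adjusted p, and the 3 genes most correlated with each member. Some genes that this rule names are not reported here. The members and lists were chosen with earlier results of these data known. P-values measure the spread between these libraries. Promoters came from RefSeq on GRCm38.p6 (chromosome 18 left out), exon lengths from the GENCODE annotation of GRCm38, and coordinates were not carried between builds.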

Additional observations from a re-analysis of the deposited data

How the results depend on the processing

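The log2 fold changes of the members were recomputed 1510 times over the alternatives and comparisons. Of these 1457 kept the direction of a call or stayed without one, 41 lost a call, 12 gained one and 0 reversed one. Most members had no call to lose in any given comparison, and staying without one counted as kept even where the sign changed. The count of 1457 therefore does not measure how stable the calls were. The lowest Tet1 value rests on 12 reads, and every call against CD4 PBS or CD8 PBS rests on 2 libraries. With libraries left out one at a time, the number of genes called ranged from 1187 to 2639 in Treg PBS against CD4 PBS (2 to 4 members), from 658 to 1432 in CD4 DTx against CD4 PBS (1 to 3), from 197 to 2497 in CD8 DTx against CD8 PBS (1 to 3), from 761 to 2236 in Treg PBS against CD8 PBS (2 to 3), from 555 to 885 in CD4 DTx against Treg PBS (0 to 1), from 703 to 962 in CD8 DTx against Treg PBS (0 to 1), from 61 to 226 in CD4 DTx against CD8 DTx (0 members), from 59 to 116 in CD4 PBS against CD8 PBS (0 members) and from 0 to 14 for the interaction (0 members). Fitting only the groups compared called 748 genes and 1 member (Ezh2) in CD8 DTx against CD8 PBS, in place of 1377 and 3, with Uhrf1 at an adjusted p of 0.0839 and Tet1 at 0.0799, and 106 genes in CD4 DTx against CD8 DTx in place of 208. For the interaction, a pseudocount of 5 called 1 gene, no filter on low values 10 and DESeq2 88, in place of 6. In CD4 DTx against CD8 DTx edgeR called 131 genes, DESeq2 530 and the fit without the libraries numbered 1 107. DESeq2 called 326 genes in CD4 PBS against CD8 PBS in place of 137. In CD4 DTx against Treg PBS DESeq2 called 1543 genes and the fit without the libraries numbered 1 635, in place of 1002. The members called there and in CD8 DTx against Treg PBS went from 1 to 0 under TMM scaling, edgeR and the fit of the compared groups alone. Blocking on the replicate number, 1739 genes and 3 members were called in CD4 DTx against Treg PBS, 2 members in CD8 DTx against Treg PBS, 414 genes in CD4 DTx against CD8 DTx, and 1 member in CD4 PBS against CD8 PBS (Uhrf1, adjusted p = 0.0269). The block also gave Tet1 a call in Treg PBS against CD4 PBS (0.0345) and changed no other call of a member. The labels do not say what a number shares in any group, although all libraries numbered 3 differ in sex from the rest. The deviations of same-numbered CD4 PBS and CD4 DTx libraries correlated at -0.210 and -0.311, and those of CD4 PBS and CD8 PBS at 0.189. With 2 libraries in each of the PBS-treated Tconv groups, this last value is the same for both numbers by construction. Those of Treg PBS and CD4 DTx correlated at 0.252, 0.037 and 0.215, and those of Treg PBS and CD8 DTx at 0.244, 0.006 and 0.299. Sex as a covariate and the fit without the libraries numbered 1 were chosen after seeing the data, and the former changed no call of a member, with 2960, 1828 and 1608 genes called in Treg PBS against CD4 PBS, CD4 DTx against CD4 PBS and CD8 DTx against CD8 PBS in place of 2581, 1612 and 1377. Without the libraries numbered 1 Tet1 gained calls in CD4 DTx and CD8 DTx against Treg PBS (adjusted p = 0.0258 and 0.0406), Tet3 gained one in CD4 DTx against CD4 PBS (0.0440), and Eed lost both against Treg PBS (0.0958 and 0.0653). Causes of these changes were not tested.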

Other observations

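Libraries that share the replicate number 1 were low for many of these transcripts. In 6 of the 10 (Dnmt3a, Dnmt3b, Uhrf1, Tet1, Tet2 and Suz12) the library numbered 1 was the lowest of its group in Treg PBS, CD4 DTx and CD8 DTx alike, which held for 12.2% of all 12667 genes tested. The ratio of number 1 to the mean of numbers 2 and 3 was 0.650, 0.268 and 0.436 for Dnmt3a in these 3 groups, 0.647, 0.451 and 0.452 for Suz12 and 0.351, 0.355 and 0.121 for Tet1. It was 1.07, 1.06 and 1.23 for Eed, and 0.881, 1.18 and 1.05 for Ezh2, for which number 1 was lowest only in Treg PBS. CD4 PBS and CD8 PBS have no library numbered 1. This pattern was noticed in the data, and its cause was not tested.

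Each remaining member had its own nearest genes over the 13 libraries, by Pearson r on the log2 scale and with no test. Dnmt1 was most like Ncapd2 (r = 0.90), a condensin subunit, and Arhgap19 (0.86). Dnmt3a was nearest to Vps37c (0.94), Wdr6 (0.94) and Phka2 (0.93), and Dnmt3b to Mbnl1 (0.93), Larp1 (0.88) and Gpd1l (0.87). Tet2 was nearest to Tnpo1 (0.88) and E330009J07Rik (0.86), and Tet3 to Slc18a2 (0.95), Gapvd1 (0.95) and Ttc17 (0.94). Ezh2 was nearest to 1700020I14Rik (0.97), Rbms1 (0.97) and Pcgf2 (0.97). Suz12 was nearest to Tnks (0.96), Rapgef1 (0.96) and Wbp11 (0.96), and Eed to M6pr (0.95), Gnb4 (0.94) and 2610204G07Rik (0.94).

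Against CD8 PBS, Treg PBS cells had Hells 3.19-fold higher (adjusted p = 0.00404, limma) and Zbtb38 2.62-fold higher (0.00320), with Cxxc5 25.1-fold lower (0.00693). Among Polycomb genes E130012A19Rik, also known as Epop, was 3.68-fold lower (0.0426), L3mbtl2 2.61-fold lower (0.0153) and Phc2 2.17-fold lower (0.0173), with Yaf2 2.09-fold higher (0.0110). Idh1 was 6.09-fold higher (7.3e-04), Shmt2, the mitochondrial serine hydroxymethyltransferase, 2.24-fold lower (0.0192) and Mtrr, methionine synthase reductase, 1.90-fold lower (0.0307).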
